A study of Mus musculus with 6 samples.

Results

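The circadian clock genes described here are 10 genes of the gene table, taken by symbol from 34745 genes: Arntl, Clock, Npas2, Per1, Per2, Per3, Cry1, Nr1d1, Nr1d2 and Dbp. The table places Arntl (ENSMUSG00000055116) at chromosome 7, 113207465 to 113314122, Per3 (ENSMUSG00000028957) at chromosome 4, 151003652 to 151044665, and Dbp (ENSMUSG00000059824) at chromosome 7, 45705088 to 45710155, on GRCm38. All 10 passed the filter on low counts and were among the 15198 genes tested. Left ventricles of wild-type male C57BL/6 mice, given as 8 weeks old, were the source of the total RNA. The mice behind 3 libraries labelled TAC had undergone transverse aortic constriction, a tie around the aortic arch that makes the ventricle pump against raised pressure. In 3 libraries labelled Sham the operation left out the ligature, and tissue of both groups was taken 6 weeks afterwards. The mice lived under a light/dark cycle, but the labels give no hour of collection. Nor do they say whether the libraries of a group were separate mice, so the p-values measure a spread that may be technical.

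The clock is a transcriptional feedback loop that runs in nearly every cell, cardiomyocytes included. BMAL1, encoded by Arntl, pairs with CLOCK or its relative NPAS2, binds E-box DNA and drives Per, Cry, Nr1d1, Nr1d2 and Dbp. PER and CRY proteins then repress the BMAL1 dimer, while REV-ERB alpha and beta (Nr1d1 and Nr1d2) repress Arntl through ROR elements, and DBP activates genes through D-boxes. In peripheral tissues of the mouse, Arntl mRNA and Dbp or Per3 mRNA are known to crest at roughly opposite times of day, so that their balance varies with the hour.

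Because RNA was taken from whole ventricle, fewer cells of a type and less RNA per cell cannot be told apart. The gene counts summed to between 17399510 and 28401399 per library. Levels are given in CPM, each count divided by its library's size, with the TMM correction for library composition. Nppa, the atrial natriuretic peptide gene that is known to be raised under pressure overload, had 92.2, 64.3 and 95.1 CPM in TAC 1, 2 and 3, against 772, 1894 and 595 CPM in Sham 1, 2 and 3 (log2 difference -3.70, SE 0.45, edgeR adjusted p = 0.0222). The skeletal actin gene Acta1 averaged 403 ± 263 CPM under the label TAC and 3791 ± 1079 CPM under the label Sham (SD, n = 3 each), with an edgeR adjusted p of 0.0448. Of 5 hypertrophy genes checked, Ankrd1 passed in the same direction too, Nppb did not pass (edgeR adjusted p = 0.191) and Myh7 overlapped between the groups (edgeR adjusted p = 0.814). The direction of the 3 genes that passed goes against the labels, so each library is called by its label and number (TAC 1, Sham 2 and so on) and every direction below is that of the labels. On the first principal component, which held 44.9% of the variance, the labelled groups lay apart. The libraries labelled TAC scored from -42 to -24 there and those labelled Sham from 14 to 51. The library labelled TAC 3 stood apart from the other 5 on the second principal component, which held 21.8% of the variance. Over all genes tested, its score there was -43.1 and Sham 2 came next at -14.8. The rest lay between 4.44 (Sham 3) and 26.3 (TAC 2).

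The DNA around a transcription start of 4 members is shown because it holds letters known as binding motifs of the loop's own proteins. The windows run from 250 bases before to 50 after a RefSeq transcription start on GRCm38.p6, and each is printed 5′ to 3′ on the gene's strand. Windows were found for 9 of the 10 members, all but Per2, with more than 1 start for some genes. Both strands were searched for the E-box CACGTG, the related E-box CACGTT, the D-box TTATGNAA, the ROR element (A, then 2 bases of any kind, then TAGGTCA) and the cyclic AMP element TGACGTCA, where N is any base. Capitals mark the matches, none of which overlapped another. The last window belongs to Ciart, a repressor of the BMAL1 dimer described further on.
Arntl, chr7:113207261-113207560, plus strand: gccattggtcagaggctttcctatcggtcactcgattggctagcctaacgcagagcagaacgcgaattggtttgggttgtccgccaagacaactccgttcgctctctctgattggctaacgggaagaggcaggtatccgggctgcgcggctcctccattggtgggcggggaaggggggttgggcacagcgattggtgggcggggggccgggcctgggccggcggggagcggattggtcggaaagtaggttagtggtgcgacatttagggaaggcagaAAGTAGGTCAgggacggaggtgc
Per3, chr4:151044616-151044915, minus strand: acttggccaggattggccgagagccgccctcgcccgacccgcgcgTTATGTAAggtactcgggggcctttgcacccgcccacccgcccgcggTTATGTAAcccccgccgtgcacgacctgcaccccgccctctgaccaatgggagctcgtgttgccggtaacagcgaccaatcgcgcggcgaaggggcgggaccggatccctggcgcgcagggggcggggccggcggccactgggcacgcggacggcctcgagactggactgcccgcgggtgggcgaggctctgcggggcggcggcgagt
Per1, chr11:69098699-69098998, plus strand: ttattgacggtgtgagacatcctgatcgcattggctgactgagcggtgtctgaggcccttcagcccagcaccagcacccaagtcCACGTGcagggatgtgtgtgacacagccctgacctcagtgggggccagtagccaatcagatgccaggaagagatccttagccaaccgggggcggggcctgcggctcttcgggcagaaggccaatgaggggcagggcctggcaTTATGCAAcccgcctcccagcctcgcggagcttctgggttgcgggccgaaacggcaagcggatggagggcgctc
Cry1, chr10:85185005-85185304, minus strand: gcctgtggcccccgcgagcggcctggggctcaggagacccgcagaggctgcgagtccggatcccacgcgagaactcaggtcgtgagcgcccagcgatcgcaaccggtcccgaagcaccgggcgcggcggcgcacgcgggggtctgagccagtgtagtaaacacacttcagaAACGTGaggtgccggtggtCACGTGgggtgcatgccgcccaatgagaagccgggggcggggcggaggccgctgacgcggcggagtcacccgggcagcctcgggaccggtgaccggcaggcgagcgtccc
Ciart, chr3:95882179-95882478, minus strand: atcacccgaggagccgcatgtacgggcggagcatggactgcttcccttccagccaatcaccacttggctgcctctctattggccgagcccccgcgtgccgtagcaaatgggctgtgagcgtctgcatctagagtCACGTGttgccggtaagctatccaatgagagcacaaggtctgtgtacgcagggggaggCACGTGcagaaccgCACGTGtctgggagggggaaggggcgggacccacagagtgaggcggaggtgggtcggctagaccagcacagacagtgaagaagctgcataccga

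The Arntl window holds a ROR element that begins at base 278 of 300, just inside the transcribed part, a motif present in 0.7% of the 32851 promoter windows of the table. The Per3 window holds 2 D-boxes, at bases 46 and 93 (3.38% of windows hold at least 1). The Per1 window holds an E-box CACGTG at base 85 (7.15% of windows) and a D-box at base 227. The Cry1 window holds CACGTG at base 191 and the reverse complement of CACGTT at base 172 (4.68% of windows). Ciart holds 3 copies of CACGTG. The windows of the other start of Arntl and of Per1 held no match. The Nr1d1 window, not printed, has the reverse complement of CACGTT at base 223. In the windows of Clock, Npas2, Nr1d2 and Dbp none of these letters was found, and no member's window held the cyclic AMP element (1.79% of windows). A match describes these letters alone.

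No clock gene passed the test between the libraries labelled TAC and those labelled Sham. Of the 10 members, 0 passed an adjusted p of 0.05 in edgeR's quasi-likelihood test, against 1.43% of the 15198 genes tested, and 0 had an unadjusted p under 0.05, against 20.9% of those genes. DESeq2 and limma on log2 FPKM also called 0 of the 10, although DESeq2 called 7.86% of the genes tested. In none of the 10 were the groups free of overlap, against 27.0% of the genes tested. The median log2 difference, labelled TAC minus labelled Sham, was -0.03 over the 10 and 0.0075 over all genes tested, with 5 estimates positive and 5 negative. The intervals below show how large a difference these libraries leave possible. For Arntl, Npas2 and Dbp it is more than a doubling or halving. For Per3 it is more than a doubling but less than a halving (-0.78 to 1.17). For Clock, Per1, Per2, Cry1, Nr1d1 and Nr1d2 it is under 1 log2 unit either way.

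**Figure D1:**
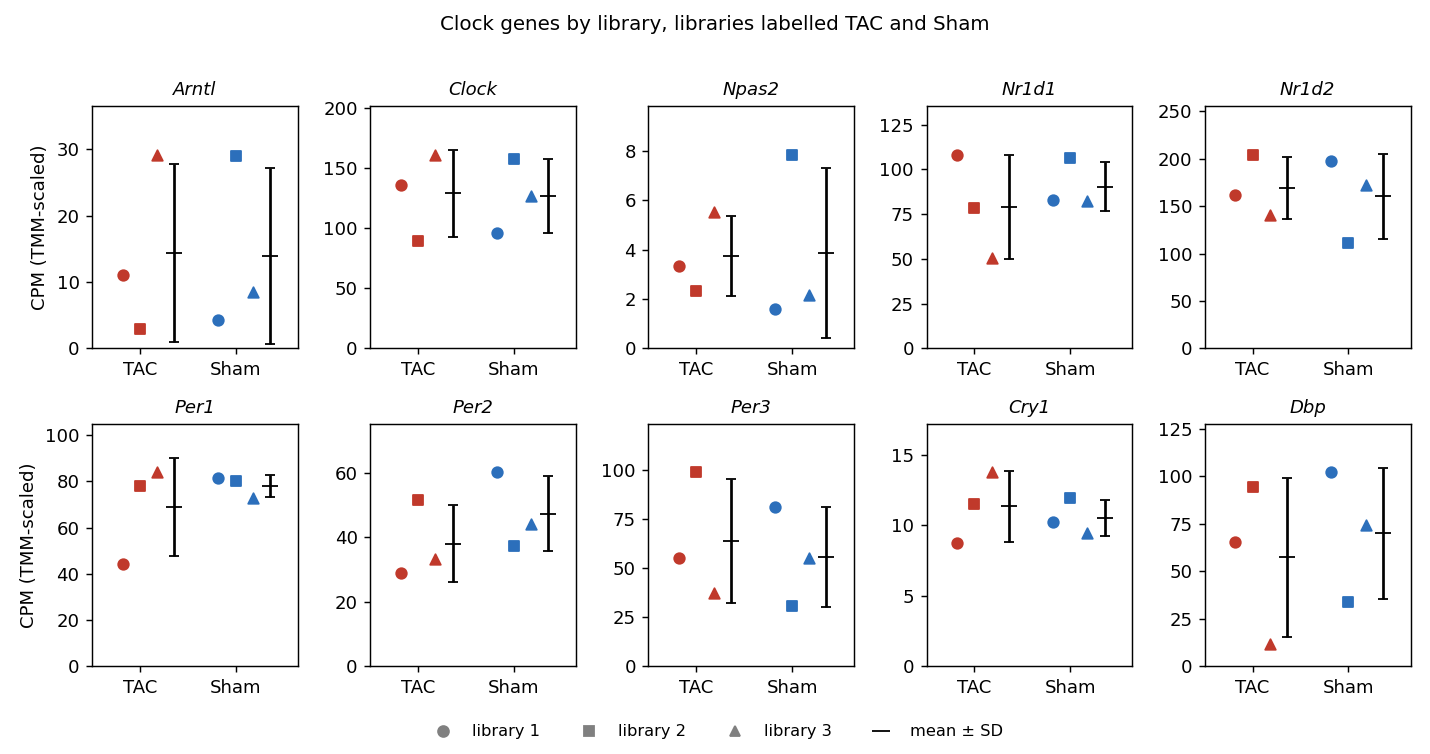
TMM-scaled CPM of the 10 clock genes, with the 3 libraries labelled TAC on the left and the 3 labelled Sham on the right of each panel, symbols for the library number and black bars for the mean ± SD. In every panel the groups overlap, and Arntl runs from 2.95 to 29.2 CPM within the libraries labelled TAC alone.

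Arntl, which encodes the BMAL1 activator, had 11.02, 2.95 and 29.2 CPM in TAC 1, 2 and 3, against 4.30, 29.0 and 8.47 CPM in Sham 1, 2 and 3. Each group holds a library near 29 CPM, TAC 3 and Sham 2, and a library under 5 CPM. The group means were 14.4 ± 13.4 CPM and 13.9 ± 13.2 CPM for the labels TAC and Sham (SD, n = 3 each), and the log2 difference was 0.03 (SE 0.85, 95% interval -1.94 to 2.01, edgeR adjusted p = 0.987). The counts behind these values ran from 58 to 821 reads. Without the library labelled TAC 3 the estimate was -1.005, and without Sham 2 it was 1.18, neither past the threshold.

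Clock, the gene of BMAL1's partner, had 136, 89.4 and 161 CPM in TAC 1, 2 and 3, against 95.9, 158 and 127 CPM in Sham 1, 2 and 3. The libraries high in Arntl were also the highest in Clock, over a narrower span of 1.80 times. Its log2 difference was 0.02 (SE 0.25, 95% interval -0.55 to 0.60, adjusted p = 0.970 in edgeR). Npas2, the alternative partner, was sparse, at 3.34, 2.34 and 5.54 CPM in TAC 1, 2 and 3 (69, 46 and 109 reads), against 1.58, 7.84 and 2.17 CPM in Sham 1, 2 and 3 (33, 222 and 40 reads). It too was highest in TAC 3 and Sham 2 of its group. The log2 difference was -0.07 (SE 0.60, 95% interval -1.47 to 1.32, adjusted p = 0.960 in edgeR).

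Among the repressors, the Period genes did not share 1 pattern. Per3 had 55.3, 98.9 and 37.2 CPM in TAC 1, 2 and 3, against 81.2, 30.6 and 55.2 CPM in Sham 1, 2 and 3. It was lowest where Arntl was highest, in TAC 3 and Sham 2, and highest in TAC 2 and Sham 1. The log2 difference was 0.20 (SE 0.42, 95% interval -0.78 to 1.17, adjusted p = 0.826 in edgeR). Per2 had 29.0, 51.7 and 33.3 CPM in TAC 1, 2 and 3, against 60.2, 37.4 and 44.2 CPM in Sham 1, 2 and 3. It had the largest log2 difference of the 10 in size, -0.32 (SE 0.25, 95% interval -0.90 to 0.27, edgeR adjusted p = 0.517), and the groups still overlapped. Per1, which is also induced by glucocorticoids and other acute signals, had 44.4, 78.1 and 84.0 CPM in TAC 1, 2 and 3, against 81.6, 80.1 and 72.8 CPM in Sham 1, 2 and 3. TAC 1 was low, and the other 5 lay between 72.8 and 84.0 CPM. Its log2 difference was -0.18 (SE 0.22, 95% interval -0.70 to 0.33, adjusted p = 0.684 in edgeR).

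Cry1, a cryptochrome that represses the BMAL1 dimer, varied least of the 10, with 8.75, 11.5 and 13.8 CPM in TAC 1, 2 and 3, against 10.2, 11.9 and 9.44 CPM in Sham 1, 2 and 3. Its log2 difference was 0.10 (SE 0.19, 95% interval -0.35 to 0.55, adjusted p = 0.801 in edgeR). Nr1d1, the REV-ERB alpha gene, had 108, 78.2 and 50.5 CPM in TAC 1, 2 and 3, against 82.7, 106 and 82.2 CPM in Sham 1, 2 and 3. TAC 1 and Sham 2 were high and TAC 3 was low. The log2 difference was -0.20 (SE 0.26, 95% interval -0.79 to 0.40, adjusted p = 0.713 in edgeR). Nr1d2, its paralogue, had 162, 204 and 140 CPM in TAC 1, 2 and 3, against 198, 111 and 172 CPM in Sham 1, 2 and 3, low where Arntl was high. Its log2 difference was 0.07 (SE 0.23, 95% interval -0.45 to 0.60, adjusted p = 0.884 in edgeR).

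Dbp, an output gene whose product activates D-box genes, had 65.6, 94.4 and 11.7 CPM in TAC 1, 2 and 3, against 102, 33.6 and 74.5 CPM in Sham 1, 2 and 3. TAC 3 was lowest by far and Sham 2 came next, while TAC 2 and Sham 1 were highest. The group means were 57.2 ± 42.0 CPM for the label TAC and 70.1 ± 34.5 CPM for the label Sham (SD, n = 3 each). The log2 difference was -0.29 (SE 0.67, 95% interval -1.84 to 1.26, edgeR adjusted p = 0.839), and it was 0.19 without TAC 3.

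**Figure D2:**
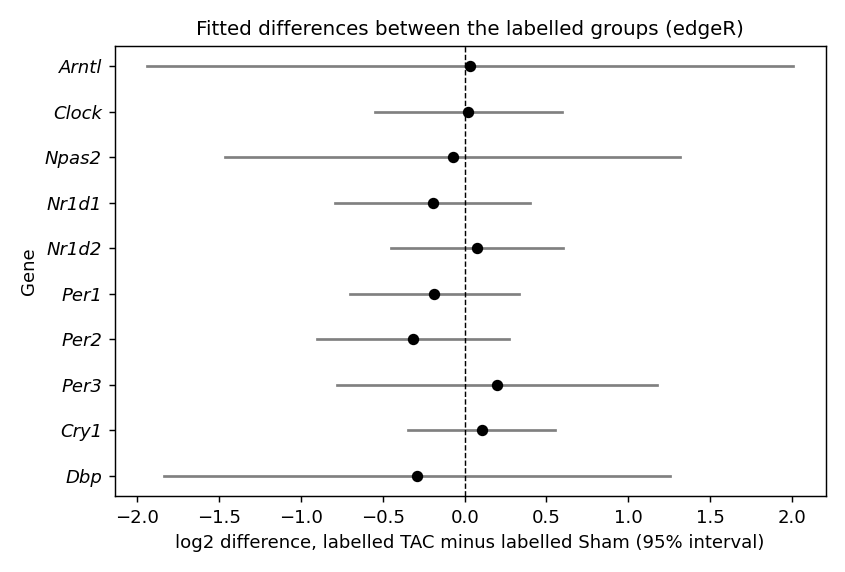
Fitted log2 difference of each clock gene, labelled TAC minus labelled Sham (dots), with 95% intervals from edgeR's quasi-likelihood fit (bars) and a dashed line at 0. Every interval includes 0, and the widest, for Arntl, runs from -1.94 to 2.01.

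The clock genes differed between libraries inside each group. The SD of log2 CPM within groups was 1.51 for Arntl, and 0.329% of the genes tested had a larger one. For Dbp it was 1.27 (0.75% of genes larger), for Npas2 0.95 (2.30%) and for Per3 0.71 (5.72%). The other 6 members had 20.5% to 42.7% of genes above them. The median over the 10 was 0.41, against 0.23 over all genes tested. Within the libraries labelled TAC, the highest value was 9.88 times the lowest for Arntl and 8.04 times for Dbp. Within those labelled Sham it was 6.74 times for Arntl and 3.05 times for Dbp, where the median gene tested spanned 1.323 and 1.303 times in the libraries labelled TAC and Sham.

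Several members had linked orders across these libraries. In both groups, libraries ordered by Arntl (TAC 2, TAC 1, TAC 3 and Sham 1, Sham 3, Sham 2) had the same order for Clock and Npas2 and the reverse order for Per3, Nr1d2 and Dbp. That is 5 of the other 9 members (55.6%), while 10.3% of the 15197 other genes tested had either order in both groups. Over the 6 libraries, Pearson's r of log2 CPM with Arntl was 0.98 for Clock, 0.90 for Npas2, -0.99 for Per3, -0.94 for Nr1d2, -0.87 for Dbp and -0.74 for Per2. It was 0.43 for Cry1, 0.02 for Per1 and -0.13 for Nr1d1. With each group's own mean taken off, the values for Clock, Per3 and Dbp were 0.98, -0.996 and -0.91. Of the 15197 genes other than Arntl, 6 had an r with it at least as high as that of Clock, Clock among them, and 2 had one at least as low as that of Per3, Per3 among them. Over the 4 libraries without TAC 3 and Sham 2, r was 0.99 for Clock, -0.98 for Per3, -0.99 for Nr1d2, -0.91 for Dbp and 0.57 for Npas2. Without those libraries r was -0.98 for Cry1, -0.77 for Per1 and 0.77 for Nr1d1, each with the opposite sign to its value over all 6. These values describe only these 6 libraries, and they carry no test.

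**Figure D3:**
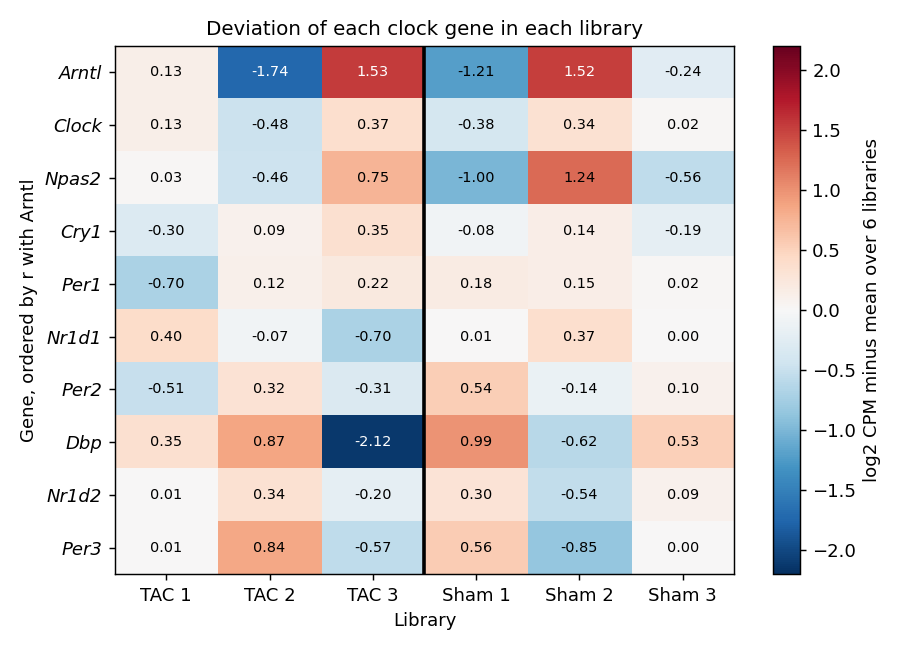
Log2 CPM of each clock gene minus its mean over the 6 libraries, with the libraries labelled TAC left of the black line and those labelled Sham right of it, and genes ordered by r with Arntl. Arntl, Clock and Npas2 are above their means in TAC 3 and Sham 2 and below them in TAC 2 and Sham 1, and Dbp, Nr1d2 and Per3 have the opposite signs in those libraries.

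**Figure D4:**
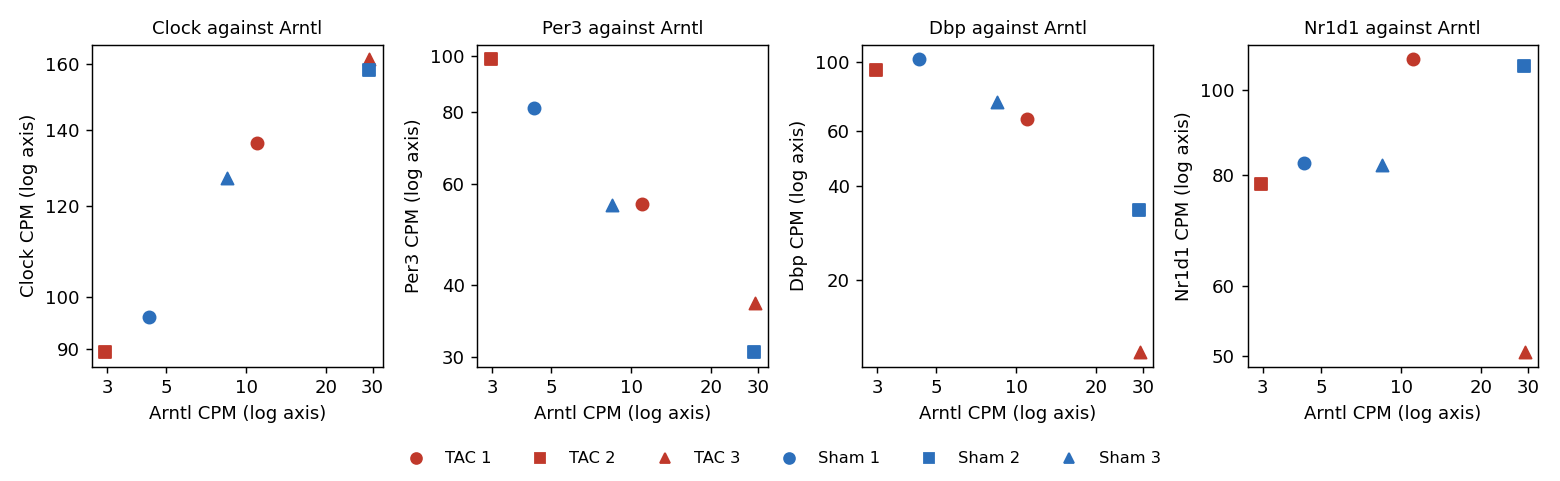
CPM of Clock, Per3, Dbp and Nr1d1 against CPM of Arntl on log axes, 1 point per library, red for the label TAC and blue for Sham. Clock goes up and Per3 goes down with Arntl whichever the label, while Nr1d1 is lowest in TAC 3 and near its highest in Sham 2 at the same Arntl level.

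The balance of activator to target within a library shows the spread on 1 scale. The log2 ratio of Arntl to Dbp was -2.56, -4.96 and 1.31 in TAC 1, 2 and 3, against -4.54, -0.21 and -3.12 in Sham 1, 2 and 3, a span of 6.26 log2 units. TAC 3 alone had more Arntl than Dbp reads, while per length, on log2(FPKM + 0.1), the ratio was above 0 in Sham 2 as well (2.06 in TAC 3 and 0.58 in Sham 2), and TAC 2 and Sham 1 lay at the other end. The log2 ratio of Arntl to Nr1d1 was -3.28, -4.68 and -0.79 in TAC 1, 2 and 3, against -4.23, -1.87 and -3.27 in Sham 1, 2 and 3. The log2 ratio of Npas2 to Per3 was -4.01, -5.34 and -2.73 in TAC 1, 2 and 3, against -5.60, -1.95 and -4.61 in Sham 1, 2 and 3. All 3 ratios put TAC 3 and Sham 2 at the high end, TAC 1 and Sham 3 in the middle and TAC 2 and Sham 1 at the low end. This agreement restates the orders given above for Arntl, Dbp, Npas2 and Per3 and is no separate evidence. The ratio to Nr1d1 mostly repeats Arntl, whose SD of log2 CPM over the 6 libraries was 1.36, against 0.40 for Nr1d1. Whether the hour of collection differed between libraries was not tested.

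TAC 3 and Sham 2 had close levels of Arntl, 29.2 and 29.0 CPM, but differed in other genes of the loop beyond counting error. With exact 95% intervals that cover counting error only, Dbp in TAC 3 was 0.35 times that in Sham 2 (0.302 to 0.404), Nr1d1 0.476 times (0.442 to 0.511) and Ciart 0.198 times (0.131 to 0.291). Clock was 1.02 times (0.976 to 1.07) and Per1 1.05 times (0.984 to 1.12). Nr1d2 was higher in TAC 3, 1.26 times (1.20 to 1.33), and so was Hlf, 1.99 times (1.70 to 2.33). These ratios compare 1 library with 1 other and not the conditions.

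Levels between genes were compared per length, in FPKM. Over the 6 libraries the means fell in the order Nr1d2 (28.2 FPKM), Nr1d1 (24.1), Dbp (12.7), Per1 (8.91), Per2 (7.24), Clock (5.76), Arntl (4.86), Per3 (4.69), Cry1 (3.63) and Npas2 (0.767). The ranges of every gene and the next in this order overlapped except Cry1 and Npas2, whose ranges were 2.79 to 4.54 FPKM and 0.324 to 1.58 FPKM. Arntl alone ran from 0.995 to 9.98 FPKM, a span that covers most of the middle of the list. The length behind the authors' FPKM was 22241 bases for Clock and 5036 bases for Dbp, whose whole locus has 5068 bases, so levels of these genes per length depend on the exon model used.

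Of 17 further core clock and clock-loop genes, all tested, 0 passed in edgeR, 1 had an unadjusted p under 0.05 (5.88%, against 20.9% of all genes tested) and DESeq2 called 0. Their median log2 difference was -0.07. Bhlhe40, an E-box repressor also called DEC1, had the smallest p, at 56.7, 49.0 and 45.7 CPM in TAC 1, 2 and 3, against 52.3, 101.5 and 83.0 CPM in Sham 1, 2 and 3 (log2 difference -0.65, SE 0.23, edgeR adjusted p = 0.171). It was the 1 gene of the 17 to pass without the library labelled Sham 1 (edgeR adjusted p = 0.0443), where 2.57% of the genes tested passed. Timeless, Csnk1d, which encodes a kinase of PER proteins, and Bhlhe41, the DEC2 gene, had log2 differences of -0.38, -0.20 and -0.42, with edgeR adjusted p-values of 0.252, 0.296 and 0.398.

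The D-box factors among them varied by library. Tef, an activator related to DBP, had 128, 202 and 115 CPM in TAC 1, 2 and 3, against 190, 96.0 and 130 CPM in Sham 1, 2 and 3. Hlf, the third activator of that family, had 20.1, 26.2 and 19.2 CPM in TAC 1, 2 and 3, against 30.5, 9.64 and 21.5 CPM in Sham 1, 2 and 3. Nfil3, the repressor that competes at D-boxes, ran the other way, with 9.09, 7.08 and 23.0 CPM in TAC 1, 2 and 3, against 6.46, 17.7 and 8.47 CPM in Sham 1, 2 and 3. Tef and Hlf had the reverse of the Arntl order and Nfil3 the same order (r with Arntl -0.95, -0.80 and 0.94 over the 6 libraries). The other 14 of the 17 genes had neither order, so that 17.6% had 1 of them, against 10.3% of all genes tested. The median absolute r with Arntl was 0.38 over the 17 and 0.37 over all genes tested. Ciart, whose promoter window is printed above, had 10.1, 16.5 and 1.52 CPM in TAC 1, 2 and 3, against 8.61, 7.70 and 4.67 CPM in Sham 1, 2 and 3. Its TAC 3 value was the lowest, as for Dbp, but Sham 2 was not low.

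**Figure D5:**
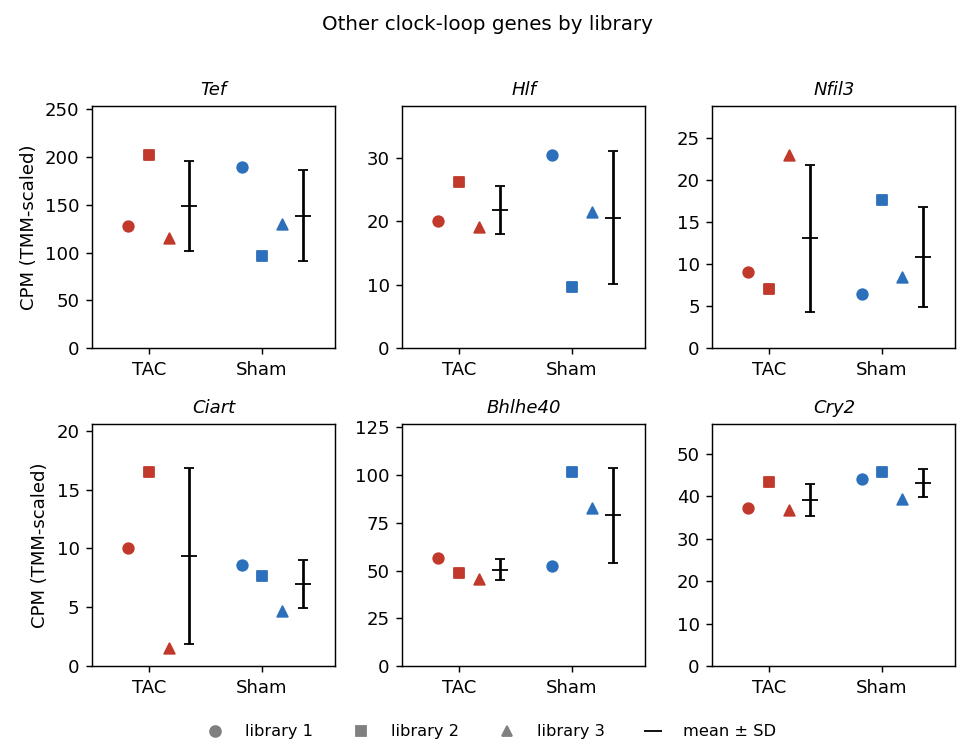
TMM-scaled CPM of 6 other clock-loop genes, with libraries labelled TAC left and Sham right in each panel, symbols for the library number and black bars for the mean ± SD. Tef and Hlf are lowest and Nfil3 highest in TAC 3 and Sham 2 of their groups, while Cry2 stays between 36.7 and 45.7 CPM.

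Of 26 genes known as rhythmic outputs in peripheral tissues, 0 passed in edgeR, 5 had an unadjusted p under 0.05 (19.2%, against 20.9% of all genes tested) and DESeq2 called 2, Kcnip2 and Tspan4 (against 7.86% of all genes tested), so both counts were near the background. Their median log2 difference was 0.15. Kcnip2, a potassium channel subunit gene of the transient outward current, had 61.0, 92.9 and 124 CPM in TAC 1, 2 and 3, against 53.7, 28.6 and 38.1 CPM in Sham 1, 2 and 3 (log2 difference 1.21, SE 0.30, edgeR adjusted p = 0.0932). The next by p were Tspan4, Clpx and Dgat2, with log2 differences of -0.88, 0.42 and 0.57 and edgeR adjusted p-values of 0.107, 0.128 and 0.160. Kcnh2, the channel of the rapid delayed rectifier current and a known clock target in mouse heart, had 71.4, 85.0 and 43.9 CPM in TAC 1, 2 and 3, against 78.4, 28.4 and 51.5 CPM in Sham 1, 2 and 3. It had the reverse of the Arntl order in both groups, as 7 of the 26 had this order or the same one (26.9%, against 10.3% of all genes tested). Kcnh2 was named after its values were seen.

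Glucocorticoids are a daily cue to peripheral clocks. Of 12 glucocorticoid-responsive genes, 1 passed with a lower level under the label TAC, against 1.11% of all genes tested. It was Fkbp5, which encodes a co-chaperone of the glucocorticoid receptor. It fell to 35.6, 47.0 and 33.9 CPM in TAC 1, 2 and 3, against 95.9, 158 and 75.3 CPM in Sham 1, 2 and 3, and the groups did not overlap (log2 difference -1.50, SE 0.28, edgeR adjusted p = 0.0488). With any 1 of the 6 libraries left out it no longer passed, at edgeR adjusted p-values of 0.0530 to 0.148, and its r with Arntl was 0.08. The next by p were Lcn2, Mt2 and Mt1, with log2 differences of -2.78, -1.45 and -0.65 and edgeR adjusted p-values of 0.0699, 0.172 and 0.300. The median log2 difference of the list, which holds Per1 as well, was -0.31. In edgeR 3 of the 12 had an unadjusted p under 0.05 (25.0%, against 20.9% of all genes tested), near the background. The difference was negative for 9 genes and positive for 3, Dusp1 (0.59), Errfi1 (0.29) and Klf9 (0.16).

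The genes most like Arntl in their pattern were sought among 1058 genes whose mean was 1 FPKM or more and whose SD of log2 CPM was 0.5 or more. The highest r over the 6 libraries belonged to Ftl1 (0.98), a ferritin light chain gene, Nedd9 (0.96), Gfpt2 (0.95), Ppp1r15a (0.95) and Atf3 (0.95), a stress-induced transcription factor gene. The lowest belonged to Per3 itself (-0.99), Fam69b (-0.98), Spata33 (-0.97), Map2k6 (-0.96) and Tmem86a (-0.95). The SD floor kept 2 clock genes with stronger r out of this set. They were Clock (0.9799, above Ftl1 at 0.9794) and Tef (-0.9498, below Tmem86a at -0.9474), with SDs of 0.36 and 0.42. Atf3 had 3.63, 1.53 and 17.9 CPM in TAC 1, 2 and 3, against 2.01, 14.8 and 7.71 CPM in Sham 1, 2 and 3, and Per3 was the lowest of all 1058. For Dbp the highest r belonged to Pagr1b (0.96), Tmem86a (0.96), Ip6k3 (0.96), Rom1 (0.96) and Ighm (0.95). The lowest belonged to Slc16a6 (-0.997), Cldn5 (-0.98), Hist1h2be (-0.97) and Nfil3 (-0.97), with a gene listed by a clone name (-0.98) between them. Slc16a6, a monocarboxylate transporter family gene, had 13.6, 10.6 and 49.1 CPM in TAC 1, 2 and 3, against 11.1, 23.6 and 13.8 CPM in Sham 1, 2 and 3. In this set 17 genes had an absolute r over 0.9 with Arntl and 34 with Dbp, and with 6 libraries such a likeness is a description only.

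The lncRNA table holds 13 transcripts that overlap the loci of 4 members, 4 each at Arntl and Per3, 3 at Clock and 2 at Nr1d1. Of these, 8 passed the filter on low counts, 0 passed the test, against 0.106% of the 16035 transcripts tested, and 1 had an unadjusted p under 0.05 (12.5%, against 12.6% of the transcripts tested). DESeq2 called 0 of the 8. NONMMUT063286.2, inside the Arntl locus (chromosome 7, 113240250 to 113243216), had 22, 0 and 82 reads in TAC 1, 2 and 3, against 10, 55 and 12 reads in Sham 1, 2 and 3, the same order of libraries as Arntl. NONMMUT063287.2 begins at the same base and had 5, 10 and 31 reads in TAC 1, 2 and 3. In Sham 1, 2 and 3 it had 7, 16 and 4 reads. Its order of libraries was not that of Arntl in either group (r with Arntl 0.54, against 0.92 for NONMMUT063286.2). NONMMUT050749.2, inside the Per3 locus, had 15.2, 19.2 and 6.92 CPM in TAC 1, 2 and 3, against 22.8, 10.3 and 13.9 CPM in Sham 1, 2 and 3. NONMMUT011913.2, inside the Nr1d1 locus (chromosome 11, 98768996 to 98773402), was the transcript with the smallest p, at 48, 39 and 82 reads in TAC 1, 2 and 3, against 29, 30 and 21 reads in Sham 1, 2 and 3 (log2 difference 1.05, SE 0.32, edgeR adjusted p = 0.280). This transcript was highest in TAC 3, where Nr1d1 itself was lowest. Its first bases also lie within the neighbouring gene Thra, whose locus ends at base 98769006, and Thra too was highest in TAC 3 (79.1 CPM). No source used here states the strand setting of the counts, so reads of a gene and of a transcript that overlaps it cannot be told apart.

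Some members share their locus with another gene. The Nr1d1 locus overlaps Thra, the thyroid hormone receptor alpha gene, over 1075 bases, the Dbp locus overlaps Sphk2 over 689 bases, and Per3 lies wholly inside the annotated locus of Camta1. Thra had 64.4, 58.4 and 79.1 CPM in TAC 1, 2 and 3, against 53.4, 52.9 and 49.0 CPM in Sham 1, 2 and 3, not the pattern of Nr1d1. Sphk2 lay between 13.2 and 17.9 CPM in all 6 libraries while Dbp spanned 8.71 times, and the r of Camta1 with Per3 was -0.67.

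Sums over cell type markers had an r with Arntl between -0.50 and 0.30. The most abundant markers weigh most in a sum (Myh6 gave 32770 CPM of the cardiomyocyte sum in TAC 1), and single markers could differ from it. Among single markers, Pecam1 (endothelial) had an r with Arntl of 0.80 and Kcnj8 (pericyte) one of -0.895. The median absolute r was 0.14 over the endothelial and 0.42 over the pericyte and smooth muscle markers, against 0.37 over all genes tested. The summed level of 8 cardiomyocyte markers was 51510 to 66640 CPM under the label TAC and 35940 to 49360 CPM under the label Sham, and its r with Arntl over the 6 libraries was -0.41. For 8 fibroblast markers the sums were 907 to 1251 CPM and 2004 to 2690 CPM for the labels TAC and Sham (r with Arntl -0.01), and for 7 macrophage markers 161 to 295 CPM and 362 to 387 CPM (r -0.38). For 8 endothelial markers the sums were 1293 to 1402 CPM and 1145 to 1427 CPM (r 0.30), and for 7 pericyte and smooth muscle markers 1779 to 2133 CPM and 1492 to 1890 CPM (r 0.12). For 5 atrial markers they were 5.75 to 59.8 CPM and 29.0 to 70.1 CPM (r 0.13), for 5 neutrophil markers 1.22 to 22.1 CPM and 3.40 to 5.54 CPM (r -0.33), and for 5 erythroid markers 274 to 594 CPM and 266 to 346 CPM (r -0.50). The atrial sum hides a split: in Sham 2, its lowest Sham value, Dkk3 alone gave 27.1 CPM. Myl4 had 0.58, 6.62 and 29.1 CPM in TAC 1, 2 and 3, against 27.7, 1.73 and 33.55 CPM in Sham 1, 2 and 3. Myl7 and Sln were likewise highest in TAC 3, Sham 1 and Sham 3. The 5 adipocyte markers summed to at most 2.44 CPM in any library, and no marker of any list was at 0 in all 6 libraries. Their part in the values of the clock genes was not tested.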

How the data were processed

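For each library the deposited gene and lncRNA tables give counts and FPKM, per the file headers. HISAT2 2.0.4, StringTie 1.3.0 and GRCm38 (mm10) are named in the submitters' processing notes. No source used here states their roles, the annotation, the counting program, strand or filters. Each column was tied to its library by the description label.

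The counts deposited by the authors were tested on each whole table with edgeR 4.0.16 in R 4.3.3 (quasi-likelihood, TMM, Benjamini-Hochberg adjustment, no block, filterByExpr at its default minimum of 10). SEs are the absolute log2 difference over the square root of F. Correlations and deviations use log2 CPM with a prior count of 2. The FPKM values deposited by the authors served for levels between genes, for filters and for limma 3.58.1 on log2(FPKM + 0.1) and log2(FPKM + 1). For lncRNAs the library size was the total behind their FPKM. Alternatives included DESeq2 1.42.0, other scalings and filters, a replicate block and left-out libraries. The test was checked on simulated data. Named genes are the members, the 4 smallest p and any call in each list, and the 5 highest and lowest r with Arntl and Dbp, without predicted symbols, Rik names or pseudogenes; some list genes are not reported here. The members and lists were chosen with earlier results of these data known.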

Additional observations from a re-analysis of the deposited data

How the results depend on the processing

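None of the 10 clock genes was called under any of the 16 alternatives (15 for Npas2), nor was any lncRNA transcript at their loci under the 15 run there. The sign of members near 0 was not stable. It reversed with library totals without TMM for Arntl (-0.0067) and Clock (-0.038), and with limma on log2(FPKM + 0.1) for Arntl (-0.10), Clock (-0.052) and Npas2 (0.12). It also reversed with limma on log2(FPKM + 1) for Arntl (-0.045), Clock (-0.043) and Npas2 (0.0093), and, with the replicate block, for Npas2 (0.23). Without TAC 3 and Sham 2 together, an alternative added after seeing the data, Npas2 stood at 0.60, Nr1d1 at 0.18, Nr1d2 at -0.015 and Dnaja1 at -0.036. With 1 library left out, Arntl ran from -1.005 to 1.18, Clock from -0.17 to 0.23, Npas2 from -0.47 to 1.0, Per1 from -0.35 to 0.053, Per3 from -0.26 to 0.58, Cry1 from -0.060 to 0.26, Nr1d1 from -0.49 to 0.045, Nr1d2 from -0.13 to 0.25, Dbp from -0.85 to 0.19 and Dnaja1 from -0.13 to 0.56. Per2 kept its sign, from -0.60 to -0.11.

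The count over all genes was 217, and it was 338 without TMM, 432 without the filter, 1195 with DESeq2, 41 with the block, 51 without TAC 3 and Sham 2, and 0 to 397 with 1 library left out (0 without TAC 1, where 2564 had an unadjusted p under 0.05, 10 without TAC 2, 22 without TAC 3, 24 without Sham 2, 40 without Sham 3). Among the further clock genes it was 0 to 1 and among rhythmic outputs 0 to 1 with 1 library left out, and 2 of the outputs with DESeq2. Among glucocorticoid-responsive genes it was 2 without the filter, with DESeq2 or with limma on log2(FPKM + 1), 0 with a floor of 1 on the mean FPKM, 0 without TAC 3 and Sham 2, and 0 in each fit with 1 library left out. Among fasting and feeding genes it was 1 without the filter and 4 with DESeq2. Nppa and Acta1 were not called with the block (adjusted p = 0.0734 for both), nor was Nppa without TAC 1, TAC 2 or TAC 3, or Acta1 without any 1 library other than TAC 3. The fits with a library left out hold fewer libraries, and for the other settings the cause was not tested.

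Same-numbered libraries of the 2 groups deviated from their group means with r of -0.14, -0.12 and -0.10 over 15198 genes, so the numbers were not taken as pairs. For libraries with different numbers r ran from 0.014 (TAC 2 with Sham 3) to 0.11 (TAC 1 with Sham 3). It was 0.11 for TAC 2 with Sham 1 and 0.057 for TAC 3 with Sham 2. The log2 ratio of Npas2 to Per3 in TAC 1, 2 and 3 moved to -2.51, -3.77 and -1.31 on log2(FPKM + 0.1), which divides by gene length, with the order of the libraries kept. On that scale the log2 ratio of Arntl to Dbp in Sham 2 changed sign, 0.58 in place of -0.21. Npas2 fell under the floor of 1 on the mean FPKM. The lowest counts behind a member were 33 reads, for Npas2 in Sham 1.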

Other observations

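Feeding time is another cue to clocks of peripheral tissues. Of 14 fasting and feeding responsive genes 13 were tested, 0 passed in edgeR, 7 had an unadjusted p under 0.05 (53.8%, against 20.9% of all genes tested) and DESeq2 called 4, against 7.86% of all genes, with Acot1, Lpin1 and Ucp3 among them. Acot1, an acyl-CoA thioesterase gene, had 15.2, 14.2 and 25.9 CPM in TAC 1, 2 and 3, against 4.73, 1.20 and 6.62 CPM in Sham 1, 2 and 3, and the groups did not overlap (log2 difference 2.17, SE 0.54, edgeR adjusted p = 0.0915). Lpin1 and Ucp2 were also among the genes with the smallest p, with log2 differences of 0.63 and -0.48 and edgeR adjusted p-values of 0.119 and 0.152. Pdk4, a fasting-induced kinase gene named after its values were seen, had 2035, 1261 and 1203 CPM in TAC 1, 2 and 3, against 821, 1638 and 1869 CPM in Sham 1, 2 and 3, so the groups overlapped.

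Of 10 genes known to follow the daily temperature cycle, 0 passed in edgeR, 1 had an unadjusted p under 0.05 (against 20.9% of all genes tested) and DESeq2 called 0. Hspd1, Dnaja1, Hsp90aa1 and Cirbp had the smallest p, with log2 differences of 0.34, 0.33, -0.45 and 0.13 and edgeR adjusted p-values from 0.237 to 0.627. Hspa1a, an inducible heat shock protein gene named after its values were seen, had 2.03, 1.53 and 43.2 CPM in TAC 1, 2 and 3, against 2.63, 15.0 and 13.0 CPM in Sham 1, 2 and 3. Hspa1a, Hspa1b and Dnaja1 had the same order of libraries as Arntl in both groups, 3 of the 10 genes, against 4.74% of all other genes tested. Hspa1a and Hspa1b lie close together on chromosome 17 (from bases 34969190 and 34956436), so they may not be separate observations. Cirbp, a cold-inducible RNA-binding protein gene, lay between 18.4 and 24.6 CPM in all 6 libraries.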
